A study of Mus musculus with 6 samples.

Results

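The genes described here are those that mark the helper types of innate lymphoid cell (ILC), read in natural killer (NK) cells. The 9 genes were Rora, Ahr, Il1rl1, Il17rb, Il13, Il5, Il22, Areg and Il23r, and their peaks were the rows of the annotated consensus table that named one of them as the nearest gene. This rule gave 20 of 51775 peaks, near 8 of the 9 genes. Ahr, Il1rl1 and Il23r had 5 peaks each, while Il13, Il5, Il22, Il17rb and Areg had 1 each. Rora had 0 by this rule, although 23 peaks lay inside its transcript, and these are described after the others. The nearest gene is a label by distance only, and it does not say which gene a site regulates.

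The assay was ATAC-seq, which uses a transposase to cut and tag accessible DNA. Spleen NK cells, sorted as negative for CD3 and CD5 and positive for NK1.1 and NKp46, came from C57BL6 mice that were Rroid deficient or wildtype, with 3 libraries per genotype, and the labels give 50000 cells of each. Rroid is the locus of a long noncoding RNA that lies near Id2, and the age of the mice and the way the deficient allele was made are not given in the sources used here. Whether the 3 libraries came from different mice is not in the labels, so a p-value here reflects the spread of these samples alone, and that spread may be technical.

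NK cells and the ILCs share an origin and many surface proteins, but differ in the transcription factors and cytokines that define them. Type 2 ILCs (ILC2) depend on RORA and GATA3, sense IL-33 and IL-25 and release IL-5, IL-13 and amphiregulin. Type 3 ILCs (ILC3) depend on AHR, sense IL-23 and release IL-22 and IL-17. Mature splenic NK cells instead use T-bet and EOMES and release interferon gamma.

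Of the 8 genes with a peak, Ahr, Il17rb and Areg had a peak within 1 kb of the start site, and the other 5 had none. The promoters of 4 genes are printed, because they show both kinds: Areg and Il17rb, whose start site lay in a peak, and Il13 and Il23r, whose start site did not. Each is the 250 bases before the start site, from RefSeq on GRCm38.p6, a later build than the mm9 of the peaks, and is read 5′ to 3′ on the gene's strand. Areg is at chr5:91139349-91139598 on the plus strand, Il17rb at chr14:30008897-30009146 on the minus strand, Il13 at chr11:53634703-53634952 on the minus strand and Il23r at chr6:67491856-67492105 on the minus strand. Capitals mark matches, on either strand, to GATAA (GATA factors), GCGTG (the AHR core), AGGTCA (the ROR core), AGGTGT (T-box factors) or the E-boxes CAGCTG and CAGGTG, the second of which reads CACCTG on the other strand.
Areg: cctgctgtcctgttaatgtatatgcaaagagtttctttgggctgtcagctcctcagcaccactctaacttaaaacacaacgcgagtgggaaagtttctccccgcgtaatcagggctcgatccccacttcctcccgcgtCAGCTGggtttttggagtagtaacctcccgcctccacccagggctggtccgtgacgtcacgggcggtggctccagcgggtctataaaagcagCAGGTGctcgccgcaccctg
Il17rb: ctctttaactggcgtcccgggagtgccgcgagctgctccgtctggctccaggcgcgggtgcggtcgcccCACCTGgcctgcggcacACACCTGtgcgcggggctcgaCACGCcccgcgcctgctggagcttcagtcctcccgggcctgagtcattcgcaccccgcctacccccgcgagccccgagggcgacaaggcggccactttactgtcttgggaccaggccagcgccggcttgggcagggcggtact
Il13: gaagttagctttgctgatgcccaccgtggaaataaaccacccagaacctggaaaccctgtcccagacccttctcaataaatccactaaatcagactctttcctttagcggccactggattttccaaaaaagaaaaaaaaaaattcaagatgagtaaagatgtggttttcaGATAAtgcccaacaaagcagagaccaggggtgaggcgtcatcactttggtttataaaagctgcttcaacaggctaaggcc
Il23r: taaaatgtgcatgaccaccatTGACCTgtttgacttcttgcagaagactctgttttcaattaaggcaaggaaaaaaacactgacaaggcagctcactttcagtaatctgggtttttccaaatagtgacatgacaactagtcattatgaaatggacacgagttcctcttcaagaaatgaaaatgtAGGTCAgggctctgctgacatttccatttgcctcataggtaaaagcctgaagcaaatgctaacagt

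The Areg promoter held 2 E-boxes, 112 and 20 bases before the start site. Il17rb held 2 E-boxes, at 181 and 163 bases, an AHR core at 143 bases and a T-box match at 164 bases that overlaps the second E-box. In Il13 a single GATA match lay 80 bases before the start site, and in Il23r 2 ROR cores lay at 229 and 66 bases. Matches of this length are common: GATAA was found in 22.6% of the 32851 RefSeq promoter windows of the same length, GCGTG in 28.2%, AGGTCA in 14%, AGGTGT in 11.8% and an E-box in 27.7%. A match describes letters and not a bound site. The GC content was 57.2% for Areg and 72.0% for Il17rb, against 43.2% for Il13 and 39.6% for Il23r, beside a median of 52.4% over all windows. The windows of Areg and Il17rb held 15 and 27 CpG pairs and those of Il13 and Il23r 3 and 1, beside a median of 6. Rora, with 61.2% GC and 26 CpG pairs, had no peak by nearest gene.

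Over the 20 peaks, accessibility was lower in Rroid-deficient NK cells at 4 and higher at 0, and 16 did not pass the test. Values are normalised reads per peak, the test was limma on log2(value + 1) with Benjamini-Hochberg adjustment over the 51775 peaks, and calls are at an adjusted p under 0.05. Over all peaks 25.8% were called, 13.8% higher and 12.1% lower in Rroid-deficient cells. Without adjustment, 1 of the 20 was higher and 5 were lower at p under 0.05. Over all 51775 peaks, 9953 were higher and 9504 lower at that unadjusted limit. With edgeR or DESeq2, 0 of the 20 were called higher. The 4 lower peaks belonged to Il23r (1), Il1rl1 (2) and Ahr (1). The median log2 fold change of the 20 was 0.01 and that of all peaks -0.01, with 11 of the 20 positive and 9 negative. The 3 libraries of each genotype did not overlap at 3 peaks that were higher and 4 that were lower in Rroid-deficient cells, beside 20% and 20.1% of all peaks. In bulk samples, fewer cells with an open site and less opening per cell cannot be told apart.

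**Figure D1:**
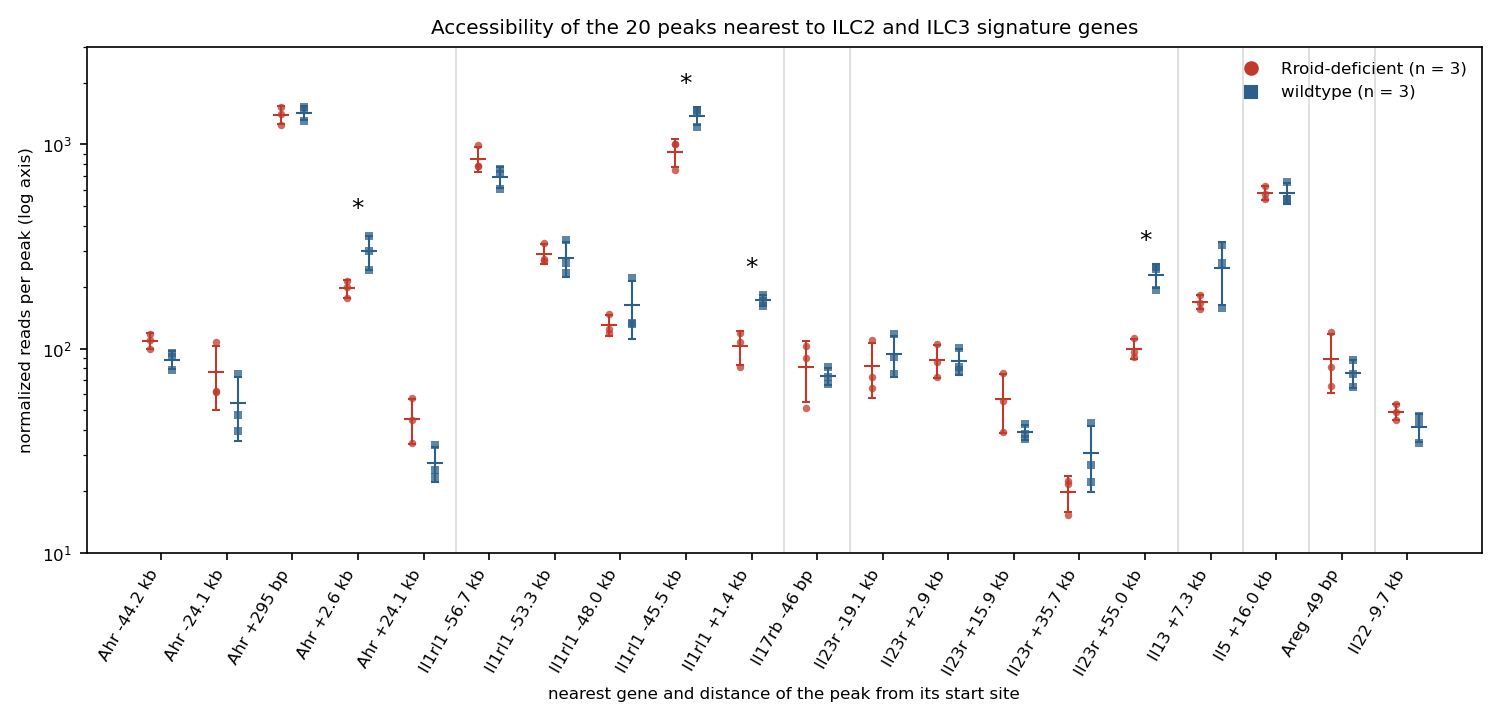
Normalised reads (log axis) in each library at the 20 peaks nearest to the signature genes, labelled by gene and distance from its start site. Points are libraries, red circles Rroid-deficient and blue squares wildtype, dashes and bars are mean ± SD (n = 3 each), and asterisks mark the 4 called peaks, all of them lower in Rroid-deficient cells.

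The 4 called peaks lay 1.4 to 55.0 kb from the start site of their gene. By the table's annotation 10 of the 20 peaks were intergenic, 7 intronic and 3 within 1 kb of a start site, and each of the 3 at start sites did not pass the test. Most were weak: 13 lay below the median level of all peaks, with 2 called lower, and 7 at or above it, with 2 called lower. Among all peaks below that median 14.7% were called higher and 6.68% lower, and among those at or above it 12.8% were called higher and 17.5% lower.

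**Figure D2:**
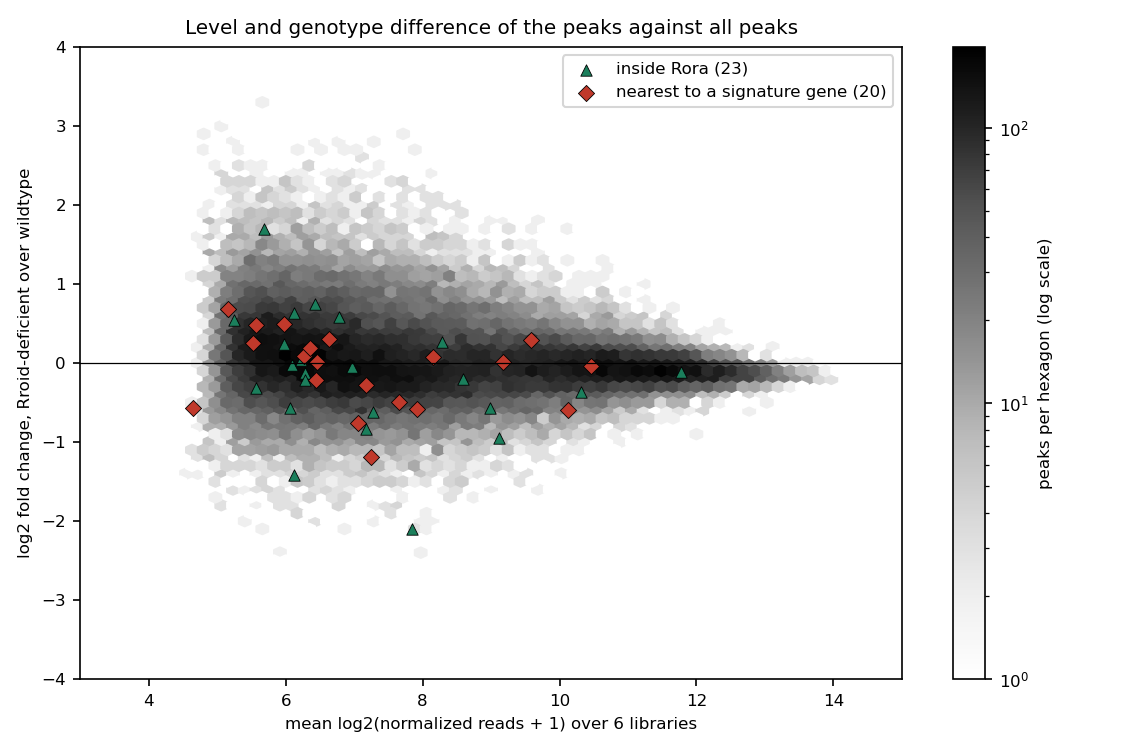
Log2 fold change, Rroid-deficient over wildtype, against the mean log2(normalised reads + 1) over the 6 libraries. Grey hexagons count all peaks, red diamonds are the 20 peaks nearest to a signature gene and green triangles the 23 inside Rora; 20 peaks of the table lie outside the plotted range. The diamonds spread around 0, with the lowest at -1.19, and the lowest triangle is at -2.10.

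Ahr encodes the ligand-activated aryl hydrocarbon receptor, which ILC3 need for their upkeep and for IL-22. The peak over its start site, in the first exon (chr12:36218594-36220138, mm9 as for all peaks), was the highest of the 20 by reads per kb. It held 1408, 1532 and 1251 normalised reads in Rroid-deficient libraries 4, 5 and 6, and 1297, 1469 and 1519 in wildtype libraries 1, 2 and 3. The genotypes overlapped throughout, and the log2 fold change was -0.03 (SE 0.10, limma adjusted p = 0.845). Per kb this is 904 reads in Rroid-deficient and 924 in wildtype cells, above 82.7% of all peaks in wildtype.

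An intronic peak 2.6 kb into Ahr (chr12:36216743-36217346, intron 1 of 10) was lower in Rroid-deficient cells. It held 176, 199.9 and 215 normalised reads in Rroid-deficient libraries, and 241, 299 and 357 in wildtype libraries. All 3 Rroid-deficient libraries were below all 3 wildtype ones, with a log2 fold change of -0.59 (SE 0.17, limma adjusted p = 0.0158). The call was lost without Rroid-deficient library 4 (adjusted p = 0.0586), without wildtype library 2 (0.0511) and without wildtype library 3 (0.0884). The other 3 Ahr peaks, 24.1 kb inside the gene (intron 5) and 24.1 and 44.2 kb upstream, did not pass the test. Their log2 fold changes were 0.68, 0.50 and 0.31 and their means 45.3 to 109 normalised reads in Rroid-deficient and 27.6 to 88.1 in wildtype libraries. The difference between genotypes was not the same at the 5 Ahr peaks in limma's diffSplice F test, which compares peaks of 1 gene with each other (adjusted p = 0.0163, with 34.3% of the 10513 genes with 2 or more peaks called). Leaving out 1 library at a time gave adjusted p from 0.0152 to 0.129, over 0.05 without Rroid-deficient library 4 (0.118), Rroid-deficient library 6 (0.0558) or wildtype library 2 (0.129).

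Il1rl1 encodes ST2, the IL-33 receptor of ILC2. The larger of its 2 lower peaks was intergenic, 45.5 kb upstream (chr1:40449931-40452154). It held 749, 1004 and 999.9 normalised reads in Rroid-deficient libraries, and 1467, 1452 and 1222 in wildtype libraries. Every Rroid-deficient value was below every wildtype one, with a log2 fold change of -0.60 (SE 0.12, limma adjusted p = 0.00157). Leaving out 1 library at a time kept the adjusted p at or below 0.00965.

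Within the gene, a peak 1.4 kb from the start site of transcript NM_001025602 (chr1:40498538-40499195, intron 2 of 9) was also lower. It held 80.9, 119 and 108 normalised reads in Rroid-deficient libraries, and 172, 161 and 183 in wildtype libraries. Again the genotypes did not overlap, and the log2 fold change was -0.76 (SE 0.20, limma adjusted p = 0.00848, at most 0.0440 with 1 library left out).

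In the intergenic stretch upstream of Il1rl1 the log2 fold changes had both signs. The highest peak per kb there, 56.7 kb upstream (chr1:40439301-40440344), held 782, 990 and 785 normalised reads in Rroid-deficient libraries, and 716, 758 and 603 in wildtype libraries. Its Rroid-deficient values lay above its wildtype ones, but the log2 fold change of 0.30 (SE 0.12) did not pass the test (limma adjusted p = 0.0890). It passed when values were scaled by total reads in peaks (0.0282) or by loess (0.0301). The peaks 53.3 and 48.0 kb upstream had log2 fold changes of 0.07 and -0.28 and overlapped between genotypes. The genotype difference was not the same across the 5 Il1rl1 peaks, the intronic one included (diffSplice adjusted p = 0.0104, with 34.3% of genes called). This F test does not say which of the peaks differ. The intergenic peaks alone were not tested. With 1 library left out the diffSplice adjusted p ran from 0.00587 to 0.0670, over 0.05 without Rroid-deficient library 4 (0.0640) or wildtype library 3 (0.0670).

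Il17rb encodes the receptor subunit through which ILC2 sense IL-25. Its single peak covered the start site (chr14:30821757-30822499), where the printed promoter holds its E-boxes. It held 103, 51.4 and 89.5 normalised reads in Rroid-deficient libraries, and 81.0, 67.2 and 72.3 in wildtype libraries. The spread of the Rroid-deficient libraries took in the whole wildtype range, and the log2 fold change was 0.09 (SE 0.27, limma adjusted p = 0.838). The sign of this value changed when Rroid-deficient library 4 was left out (-0.11). Per kb the peak averaged 109 reads in Rroid-deficient and 98.8 in wildtype cells, above 27.6% of all peaks in wildtype.

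Il23r encodes the IL-23 receptor of ILC3, and it held the largest difference among the 20 peaks. The peak lay 55.0 kb inside the gene (chr6:67386186-67387530, intron 7 of 10). It held 113, 96.1 and 90.7 normalised reads in Rroid-deficient libraries, and 194, 249.5 and 244 in wildtype libraries. The Rroid-deficient mean was 43.5% of the wildtype mean, no library overlapped, and the log2 fold change was -1.19 (SE 0.18, limma adjusted p = 0.000129). With 1 library left out the adjusted p was at most 0.00141, and over all fits the log2 fold change of this peak ran from -1.30 to -1.12. Without the 2 shallowest libraries, Rroid-deficient 4 and 6, only 1 Rroid-deficient library remained, so the spread of that genotype could not be measured. The 3 other called peaks then had log2 fold changes of -0.45 and -0.53 (Il1rl1) and -0.56 (Ahr).

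The other 4 Il23r peaks did not pass the test. They lay 2.9 kb (intron 2), 15.9 kb (intron 4) and 35.7 kb (intron 6) inside the gene and 19.1 kb upstream, with log2 fold changes of 0.01, 0.48, -0.57 and -0.21. All were weak, with means of 19.8 to 87.9 normalised reads in Rroid-deficient and 30.7 to 94.3 in wildtype libraries. The genotype difference was not the same across the 5 peaks nearest to Il23r (diffSplice adjusted p = 0.00502). Without 1 library the adjusted p ran from 0.00336 to 0.0513, the last without Rroid-deficient library 6. Further weak peaks in introns 10 and 8 of Il23r were nearest to Il12rb2 and are named with their values known. The one in intron 10 (chr6:67374747-67375389) had overlapping genotypes (log2 fold change -0.13, SE 0.27, limma adjusted p = 0.758). The peak in intron 8 (chr6:67381601-67382167) held 46.4, 6.66 and 31.4 normalised reads in Rroid-deficient libraries, and 54.3, 55.4 and 56.7 in wildtype libraries. It did not pass the test (log2 fold change -1.31, SE 0.50, limma adjusted p = 0.0609). Rroid-deficient library 5 weighs most on this value, which was -0.53 (0.213) without it and -1.84 (0.0085, a call) without Rroid-deficient library 4. The peak was also called with loess (0.0135) and with limma-voom (0.0296).

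Il13 and Il5, the cytokines by which ILC2 drive mucus and eosinophil responses, lie on the same chromosome with Rad50 between them. The Il13 peak lay 7.3 kb past the start site (chr11:53440044-53441798). It held 183.0, 156 and 168 normalised reads in Rroid-deficient libraries, and 322, 262 and 157 in wildtype libraries. Wildtype library 3 sat below 2 of the Rroid-deficient libraries, and the log2 fold change of -0.49 (SE 0.21) did not pass the test (limma adjusted p = 0.104). Without that library the peak was called lower (adjusted p = 0.00522), so 1 library decides this call.

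The Il5 peak, 16.0 kb past the start site (chr11:53548946-53551559), had nearly equal means. It held 539.7, 574 and 629 normalised reads in Rroid-deficient libraries, and 539.6, 655 and 537 in wildtype libraries. The genotypes overlapped, with a log2 fold change of 0.01 (SE 0.12, limma adjusted p = 0.956).

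Areg encodes amphiregulin, a growth factor of tissue repair, and its single peak covered the start site (chr5:91568212-91568973). It held 121, 80.9 and 65.3 normalised reads in Rroid-deficient libraries, and 88.2, 64.7 and 75.2 in wildtype libraries. The genotypes overlapped (log2 fold change 0.19, SE 0.26, limma adjusted p = 0.630), and at 117 reads per kb in Rroid-deficient and 99.6 in wildtype cells the peak was about as open as that of Il17rb.

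Il22, the barrier cytokine of ILC3, had its single peak 9.7 kb upstream (chr10:117632079-117632610), and its mean level exceeded that of 7.18% of all peaks. It held 49.1, 53.3 and 44.7 normalised reads in Rroid-deficient libraries, and 42.7, 34.4 and 46.9 in wildtype libraries. Wildtype library 3 exceeded the lowest Rroid-deficient one, and the log2 fold change was 0.25 (SE 0.29, limma adjusted p = 0.565).

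Summed over all peaks of a gene, Il23r was the 1 gene of the 8 called, beside 20.7% of all 16527 genes. Its peaks together held 346 ± 60.3 normalised reads in Rroid-deficient and 479.9 ± 45.4 in wildtype libraries (SD, n = 3 each), a log2 fold change of -0.48 (SE 0.15, limma adjusted p = 0.0417). This call rests on single libraries: the adjusted p was 0.119 without Rroid-deficient library 5, 0.108 without Rroid-deficient library 6, 0.109 without wildtype library 2, 0.135 without wildtype library 3 and 0.0935 when scaled by total reads. Ahr summed to 1825 ± 127 normalised reads in Rroid-deficient and 1897 ± 171 in wildtype libraries, with a log2 fold change of -0.05. Il1rl1 summed to 2294 ± 291 in Rroid-deficient and 2686 ± 280 in wildtype libraries, with a log2 fold change of -0.23 (limma adjusted p = 0.137).

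Rora encodes the nuclear receptor that ILC2 need in order to develop. Its transcript NM_013646 held 23 intronic peaks, of which the table named 9530091C08Rik or Ice2 as the nearest gene. Their assignment to Rora was made after their values could be seen. Of the 23, 3 were higher, 7 were lower and 13 showed no call, and the median log2 fold change was -0.13. That is 13.04% higher and 30.4% lower, beside 13.8% and 12.1% of all peaks. They ran from chr9:68732135 to chr9:69216391 and most were weak.

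The highest peak inside Rora, in intron 1 (chr9:68881714-68882926), held 3241, 3674 and 3204 normalised reads in Rroid-deficient libraries, and 3518, 3817 and 3604 in wildtype libraries. It was more open per kb than 97.85% of all peaks in wildtype cells, and it did not pass the test (log2 fold change -0.11, SE 0.08, limma adjusted p = 0.334). The site of strongest opening in the gene thus had overlapping genotypes.

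Further along intron 1, 3 peaks whose centres lay 207.7, 236.7 and 240.9 kb from that of the first peak in the gene were lower. The second of them (chr9:68968838-68969738) held 129, 96.1 and 108 normalised reads in Rroid-deficient libraries, and 435, 547 and 452 in wildtype libraries. The Rroid-deficient mean was 23.2% of the wildtype mean, with a log2 fold change of -2.10 (SE 0.16, limma adjusted p = 1.06e-07), and 60 of the 51775 peaks had a lower fold change. The third (chr9:68972898-68974066) held 339, 406 and 456 normalised reads in Rroid-deficient libraries, and 719, 839 and 754 in wildtype libraries, with a log2 fold change of -0.95 (SE 0.13, limma adjusted p = 3.9e-05). The first of the 3 (chr9:68939839-68940767) averaged 43.6 ± 16.0 normalised reads in Rroid-deficient and 114 ± 13.1 in wildtype libraries (SD, n = 3 each), with a log2 fold change of -1.42 (limma adjusted p = 0.00116). None of these 3 calls was lost when 1 library was left out.

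In introns 2 and 4, 4 further peaks were lower, with log2 fold changes of -0.37, -0.57, -0.61 and -0.83. The first of them lost its call without Rroid-deficient library 4, Rroid-deficient library 6 or wildtype library 2, and the third without Rroid-deficient library 4. Of the 3 higher peaks, all in intron 1, the one at chr9:68873698-68874317 held 91.5, 72.3 and 115 normalised reads in Rroid-deficient libraries, and 40.1, 21.8 and 23.4 in wildtype libraries. It was the peak next to the highest one on the side of the gene start and had a log2 fold change of 1.70 (SE 0.31, limma adjusted p = 0.000582). The other 2 higher peaks, with log2 fold changes of 0.59 and 0.75, lost their calls without Rroid-deficient library 4, Rroid-deficient library 6, wildtype library 2 or wildtype library 3.

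Rora therefore held peaks that differed in both directions within 1 intron. Below the median level of all peaks lay 3 higher and 3 lower Rora peaks, and at or above it 0 higher and 4 lower. Among all peaks, 14.7% were higher and 6.68% lower below that median, and 12.8% and 17.5% at or above it. The diffSplice F test across the 23 Rora peaks gave an adjusted p of 9.89e-14, and at most 8.56e-08 with 1 library left out. Summed, the peaks held 7472 ± 436 normalised reads in Rroid-deficient and 9060 ± 354 in wildtype libraries (SD, n = 3 each), a log2 fold change of -0.28 (limma adjusted p = 0.0121). The sum lost its call without Rroid-deficient library 6 (0.0805) or wildtype library 2 (0.0505), and without Rroid-deficient libraries 4 and 6 the log2 fold change was -0.18.

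**Figure D3:**
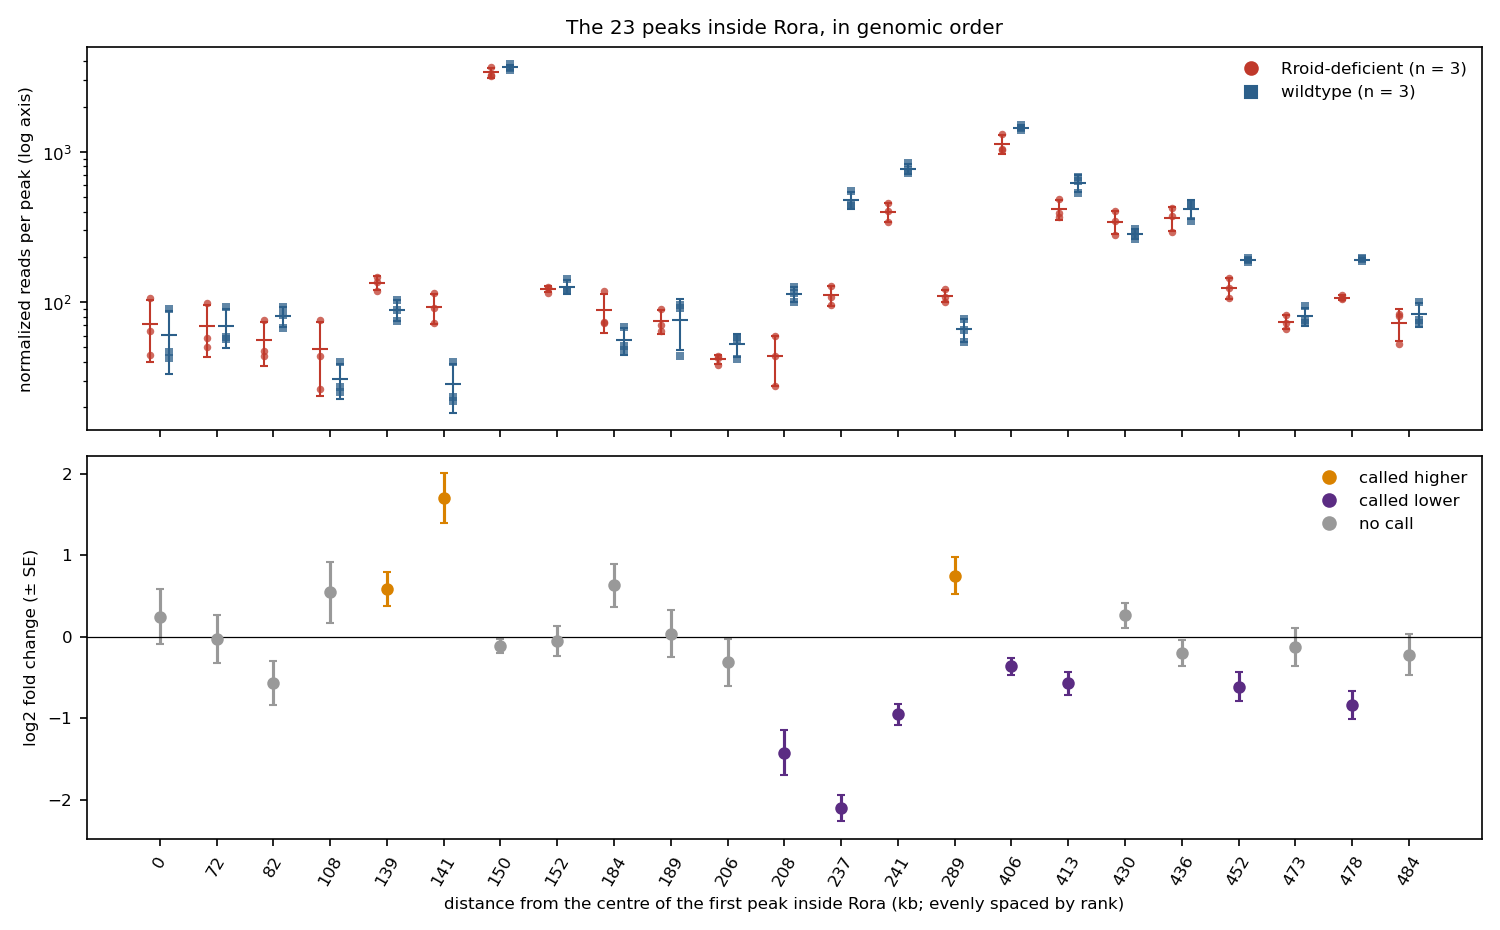
The 23 peaks inside Rora in genomic order, spaced evenly by rank and labelled by distance in kb from the first. The upper panel gives normalised reads (log axis) per library, Rroid-deficient red circles left of wildtype blue squares, with mean ± SD (n = 3 each), and the lower panel the log2 fold change ± SE, with higher calls in orange, lower calls in purple and no call in grey. The lowest point, at -2.10, lies within a run of 3 purple points.

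The peaks around each gene were read in windows of 100 kb on either side of its start site, whatever their nearest gene. Rora had no window because its start site could not be derived from the table. The 8 windows held 63 peaks, of which 2 were higher and 17 were lower, and peaks that fell in the windows of both Il13 and Il5 counted once, beside 13.8% higher and 12.1% lower over all peaks. Il1rl1, at 10 of 20, had the most lower peaks, and none there was higher. Its window runs into Il18r1 and Il18rap, the 2 chains of the IL-18 receptor, which NK cells use themselves. Il18rap was nearest to 5 lower peaks of 7, Il18r1 to 2 of 6 and Il1rl2 to 1 of 2. Of these 10 calls, 5 were lost in at least 1 fit with a library left out, all at peaks nearest to Il18r1 or Il18rap. Of those 5, 4 lost it without Rroid-deficient library 4, 4 without Rroid-deficient library 6, 1 without Rroid-deficient library 5, and 3 each without wildtype library 1 or 2. The peak in exon 7 of Il18rap (chr1:40587901-40588868) averaged 173 ± 38.3 normalised reads in Rroid-deficient and 341 ± 41.0 in wildtype libraries (SD, n = 3 each), a log2 fold change of -0.99 (limma adjusted p = 0.000458).

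Il23r lies beside Il12rb2, a chain of the IL-12 receptor that NK cells use. In its window 3 of 12 peaks were lower, 2 of them nearest to Il12rb2. One of these (chr6:67365042-67366645) averaged 399 ± 53.6 normalised reads in Rroid-deficient and 804 ± 87.1 in wildtype libraries (SD, n = 3 each), a log2 fold change of -1.01 (limma adjusted p = 2.21e-05). The other had a limma adjusted p of 0.0471 and overlapping genotypes, and it lost its call without Rroid-deficient library 4 (0.111), Rroid-deficient library 5 (0.129), wildtype library 2 (0.132) or wildtype library 3 (0.169). The Il5 window held 1 higher and 2 lower peaks of 13, the lower ones nearest to Irf1. One of these 2 (limma adjusted p = 0.0430) had overlapping genotypes, was not called by DESeq2 (0.0509) and lost its call without Rroid-deficient library 4 (0.182), Rroid-deficient library 6 (0.145), wildtype library 1 (0.0769) or wildtype library 2 (0.185). Its higher peak was nearest to Mir7671 (chr11:53568210-53569037). It held 169.7, 215 and 141 normalised reads in Rroid-deficient libraries, and 37.4, 26.0 and 17.6 in wildtype libraries, with a log2 fold change of 2.70 (SE 0.29, limma adjusted p = 3.18e-06). The windows of Il13 (6 peaks) and Areg (1 peak) held no call, those of Ahr (5 peaks) and Il17rb (4 peaks) 1 lower each, and that of Il22 (5 peaks) 1 higher, nearest to Mdm1. The lower peak of the Il17rb window, at the Selk start site, had a limma adjusted p of 0.0314 and lost its call without Rroid-deficient library 4 (0.0867), Rroid-deficient library 6 (0.119), wildtype library 2 (0.112) or wildtype library 3 (0.110). These neighbour peaks are named after their values were seen.

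**Figure D4:**
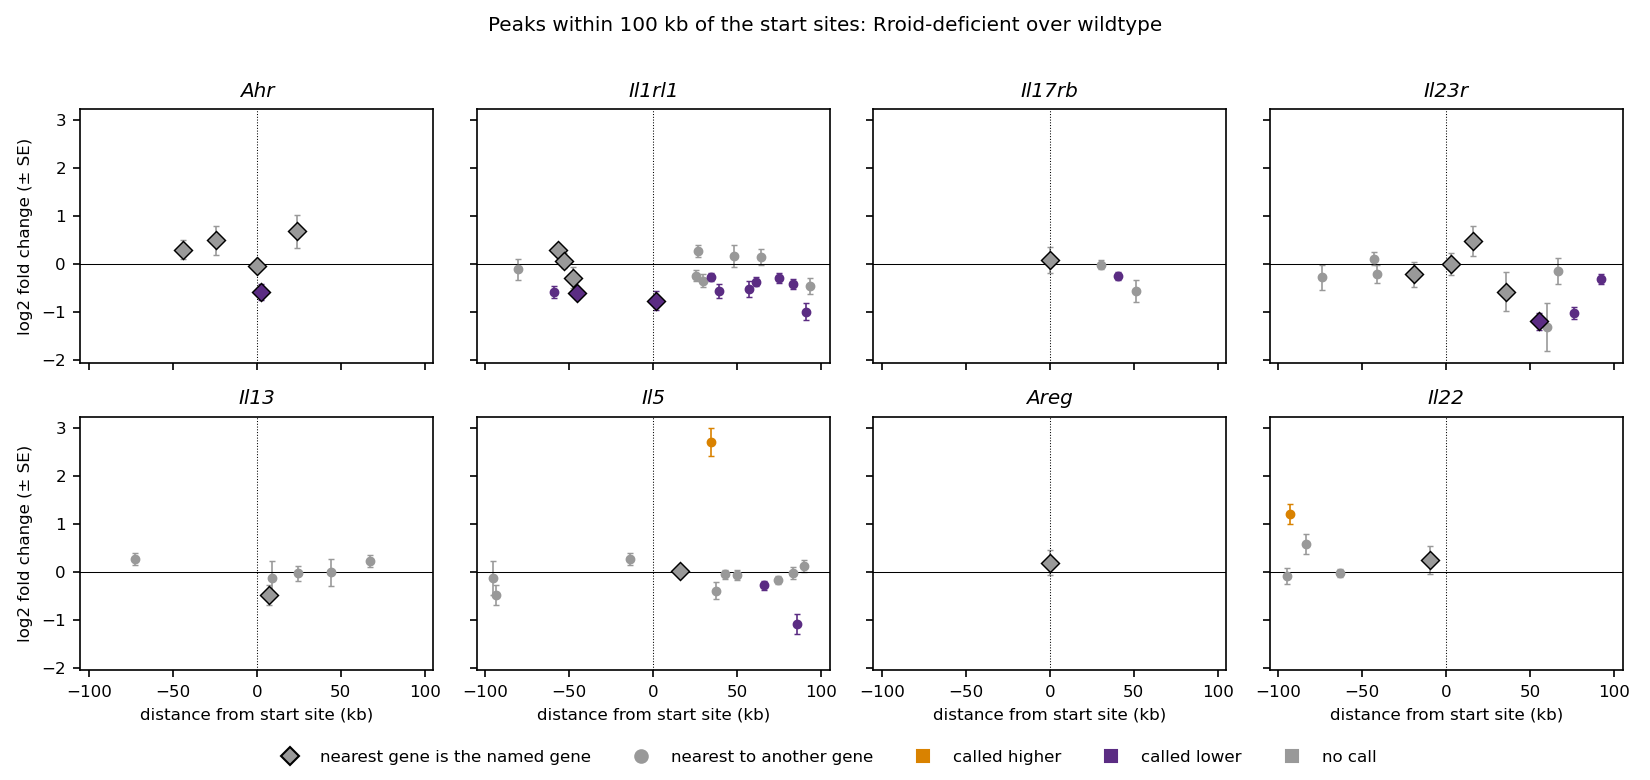
Log2 fold change ± SE, Rroid-deficient over wildtype, of each peak within 100 kb of the start site of 8 genes, against distance in kb along the gene's strand. Diamonds are peaks nearest to the named gene and circles peaks nearest to another gene, with higher calls in orange, lower in purple and no call in grey. In the Il1rl1 panel 10 of 20 points are purple and none is orange, and the highest point of the Il5 panel is at 2.70.

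Other genes of the ILC2 and ILC3 programmes were read from 2 wider lists. The ILC2 list of 26 genes had 131 peaks near 24 of them, of which 35 were higher, 15 were lower and 81 showed no call, and the median log2 fold change was 0.02. The ILC3 list of 29 genes had 101 peaks near 26 of them, of which 43 were higher, 3 were lower and 55 showed no call, and the median was 0.35. Higher calls thus made up 26.7% of the ILC2 list and 42.6% of the ILC3 list, beside 13.8% of all peaks, and lower calls 11.5% and 2.97%, beside 12.1%. These lists were chosen with earlier results of these data known, so the shares are a description and no independent evidence of a direction. Of the 43 higher calls of the ILC3 list, Kit gave 9, Lif 8 and Cxcr5 7. Several genes of these lists also work in T cells, and Bcl11b stands in the ILC2 and T cell lists alike. Beside them, 13 of 46 peaks near T cell markers were higher and 4 were lower, and the part of this shift in the list counts was not tested.

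Of the ILC2 list, the peaks with the smallest p belonged to Il4ra, Il2ra, Il9r and Klrg1. The Il4ra peak, in the gene of the IL-4 receptor chain, held 801, 911 and 839 normalised reads in Rroid-deficient libraries, and 389, 368 and 309.6 in wildtype libraries, a log2 fold change of 1.26. Il2ra, the high-affinity IL-2 receptor chain, had a peak of 399.9 ± 65.4 normalised reads in Rroid-deficient and 145 ± 8.94 in wildtype libraries, with a log2 fold change of 1.45. A peak 60.5 kb from Il9r, the IL-9 receptor, had a log2 fold change of 2.74, and one near Klrg1, an inhibitory receptor also found on mature NK cells, had -0.74. Gata3, the factor that defines ILC2, had 2 higher and 1 lower peak of 12.

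Of the ILC3 list, Kit, Cxcr5, Arntl and Tnfsf11 led. The Kit peak near its start site, in the gene of the stem cell factor receptor, held 1833, 2097 and 1797 normalised reads in Rroid-deficient libraries, and 616, 609.9 and 574 in wildtype libraries. The genotypes were far apart, with a log2 fold change of 1.66 (SE 0.10, limma adjusted p = 9.06e-09), and 9 of the 10 Kit peaks were higher. The promoter peak of Cxcr5, a chemokine receptor, had a log2 fold change of 2.48, and all 7 Cxcr5 peaks were higher. Arntl, a clock factor, had 1.70, and Tnfsf11, the RANK ligand, had 1.48. The 8 peaks had limma adjusted p from 9.06e-09 (Kit) to 4.78e-05 (Klrg1), and each kept its call with any 1 library left out.

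Il17a, which encodes the cytokine IL-17A, and Il17f beside it are named after their values were seen. The 1 Il17a peak held 403, 339.8 and 245 normalised reads in Rroid-deficient libraries, and 90.8, 29.4 and 51.8 in wildtype libraries. It was higher by a log2 fold change of 2.62 (SE 0.30, limma adjusted p = 7.43e-06), while the 1 Il17f peak, at 0.34, did not pass the test.

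Reads in peaks numbered 27572006 to 41167610 in Rroid-deficient and 39847736 to 47939665 in wildtype libraries, and counting error at the median peak was 6.68 to 8.14%. A block of 13 peaks (chr12:26000744-26079794), 10.1 Mb from the first Ahr peak, was taken as the targeted locus. Its peaks were selected, among those nearest to Gm17746, for their low signal in Rroid-deficient cells. The block summed to 51.4 to 56.8 normalised reads in Rroid-deficient and 4182 to 5600.4 in wildtype libraries, and the low sums follow from this selection. Whether it is the targeted locus was not tested. All 10 NK marker genes had a peak at their start site. Their summed level was 73503 to 86364 in Rroid-deficient and 93175 to 104890 in wildtype libraries. Of their 73 peaks, 5 were higher and 35 lower, beside 13.8% and 12.1% of all peaks. The median level percentile of these 73 peaks was 72.8. Among all peaks at or above the median level, 12.8% were higher and 17.5% lower. ILC1 markers summed to 10168 to 11353 in Rroid-deficient and 10872 to 11891 in wildtype libraries, and T cell markers to 19268 to 19750 in Rroid-deficient and 18243 to 20445 in wildtype libraries. Among T cell markers 13 of 46 peaks were called higher and 4 lower. The Cd3g peak, picked with its values known, was among the higher ones (353 in Rroid-deficient and 58.7 in wildtype cells). The others were 7 of 13 Cd28, 3 of 9 Themis and 2 of 3 Cd5 peaks. The Cd3d peak and 3 of 14 Bcl11b peaks were called lower. Cd3e, Cd8a and Cd8b1 had no call, and Cd4 had no peak. B cell markers summed to 763 to 932 in Rroid-deficient and 528 to 685 in wildtype libraries, with no peak near Cd79a, Ms4a1 or Pax5, and myeloid markers to 4322 to 4899 in Rroid-deficient and 5599 to 6518 in wildtype libraries, with none near Lyz2. Without Itgam, which NK cells also carry, the myeloid sums overlapped, at 1731 to 1823 in Rroid-deficient and 1736 to 1929 in wildtype libraries. Calls were 2 higher and 3 lower of 52 peaks for ILC1 markers. For B cell markers they were 1 and 0 of 8, and for myeloid markers 0 and 3 of 12. The part of these marker shifts in the results at the signature genes was not tested.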

How the data were processed

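Open chromatin was profiled in 6 libraries, 3 Rroid-deficient and 3 wildtype. The submitters' processing notes name MACS2 2.1.0, HOMER, R 3.1.1, DiffBind, BWA, Trimmomatic 0.32 and bcl2fastq 2.16.0, and the build mm9. How these were combined, and whether reads were shifted or duplicates removed, is not given in the sources used here. Signal values as deposited are 1 per peak and library. Within 0.01 reads, 100% of them came out as whole reads over 1 factor for each library. Rroid-deficient columns are called by the numbers 4, 5 and 6 of their names.

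The design foresaw counts or normalised values. As the unit was a normalised signal, the main test was limma 3.58.1 (R 4.3.3) with an intensity trend on log2(value + 1), which understates changes of low peaks, with Benjamini-Hochberg adjustment over 51775 peaks. Summed values were fitted the same way over genes, and diffSplice compared peaks within a gene. The fits were also run on simulated reads, with each peak drawn independently and few peaks changed. That setting differs from these data, so the run cannot vouch for the calls. Alternatives were edgeR 4.0.16, DESeq2 1.42.0 and limma-voom on the recovered reads, other scalings, pseudocounts, filters, limits and assignments, and leaving out each library. Requiring a value of 10 in 3 libraries removed 0 peaks.

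Members and lists were chosen with earlier results of these data known. Values per library are given for each gene's start-site peak, called peaks and highest peak, and other peaks by range. From each wider list up to 4 called peaks with the smallest p were named, 1 per gene. Peaks outside this rule are marked in the text as picked with their values known. Promoters came from RefSeq, which matched 8 of the 9 genes. A result for 1 gene of the wider lists is not reported here.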

Additional observations from a re-analysis of the deposited data

How the results depend on the processing

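No paired analysis was possible because the wildtype columns end in 1 to 3 and the Rroid-deficient ones in 4 to 6, which match no title. The count of higher signature peaks, 0, became 1 with total reads, loess or an adjusted p limit of 0.10, 2 within 100 kb of start sites and 3 with the peaks inside Rora. The count of lower ones, 4, became 2 among peaks at or above the median level, 1 without Rroid-deficient libraries 4 and 6, 17 within 100 kb and 11 with Rora. Over all peaks, 7126 higher and 6257 lower became 3422 higher at or above the median level, 3728 and 3653 without libraries 4 and 6, and 4365 and 3265 at a limit of 0.01, and lower calls ranged from 4039 to 6304 with 1 library left out. The wider lists together had 78 higher and 18 lower: 35 higher at or above the median level, 51 higher without libraries 4 and 6, and 10 lower at 0.01. Inside Rora, 3 higher became 0 at or above the median level, 1 without libraries 4 and 6, 1 at 0.01 and 1 to 3 with 1 library left out, and 7 lower became 4 at or above the median level and 4 without libraries 4 and 6. Genes called by sums, 1, became 0 with total reads, 2 with Rora and 0 to 1 with 1 library left out. Genes whose peaks differ, 3, became 0 without libraries 4 and 6 and 1 to 3 with 1 library left out. Without libraries 4 and 6 the lone Rroid-deficient library is assumed to vary like the others. Values near 0 that changed sign, none of them called, were these. With 1 library left out, the log2 fold change ran from -0.0401 to 0.225 at the Il1rl1 peak 53.3 kb upstream, from -0.0465 to 0.106 at the Il5 peak, from -0.102 to 0.0435 at the Ahr start peak, from -0.110 to 0.388 at the Il17rb peak, from -0.0526 to 0.386 at the Areg peak and from -0.123 to 0.144 at the Il23r intron 2 peak. Without libraries 4 and 6, the Il5 peak was at -0.00211, the Ahr start peak at 0.104, the Il17rb peak at -0.504, the Il23r intron 2 peak at -0.248 and the highest Rora peak at 0.0115. With total reads the Ahr start peak was at 0.0258. With loess the Ahr start peak was at 0.0213, the Il17rb peak at -0.0243 and the Il23r intron 2 peak at -0.0835, and with limma-voom the last was at -0.0114. The cause of these changes was not tested.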
